A study of Trichoderma harzianum with 18 samples.

Results

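The transcripts of 3 sugar-catabolic genes, *lad1* (M431DRAFT_495252), *lxr3* (M431DRAFT_479566) and *lxr4* (M431DRAFT_83091), were followed through the transcriptome of the filamentous fungus *Trichoderma harzianum*. They were chosen by their identifiers in the read count and FPKM tables, as 3 of the 14650 genes listed there, and all 3 passed the filter on low counts in every comparison. The 18 RNA-seq libraries came from the mycelium of the wild type, CBS 226.95, and of the Δ*xyr1-2* mutant, with 3 replicate cultures of each strain in each of 3 media (cellulose, D-fructose, no carbon). In the mutant, a hygromycin resistance cassette replaces *xyr1*, the gene of the transcription factor XYR1, and the mutant is 1 of the deletion strains purified from single spores, so that strain and deletion cannot be told apart. All the cultures were first grown for 36 h on D-fructose with peptone and then transferred for 18 h to 1% (w/v) cellulose, to 25 mM D-fructose or to medium with no added carbon source. RNA was taken from whole mycelium, in which less RNA per hypha and fewer hyphae of a kind cannot be told apart.

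Filamentous fungi take up L-arabinose released from plant cell walls and convert it by alternating reductions and oxidations. The reductase encoded by *xyl1* makes L-arabinitol, LAD1 (L-arabinitol 4-dehydrogenase) oxidizes this to L-xylulose, and the L-xylulose reductase encoded by *lxr3* makes xylitol. Xylitol is also the product of XYL1 from D-xylose, so that the arms for L-arabinose and D-xylose meet there, and xylitol dehydrogenase (*xdh1*) and D-xylulokinase (*xki1*) then lead to D-xylulose 5-phosphate, which enters the pentose phosphate pathway. The oxido-reductive pathway of D-galactose uses XYL1 and LAD1 as well, and in *Trichoderma reesei* the enzyme encoded by *lxr4* acts in it as the reductase of L-xylo-3-hexulose. XYR1 is known in *T. reesei* as an activator of xylanase and cellulase genes and of genes of D-xylose catabolism. None of the media held L-arabinose, D-xylose or D-galactose as an added carbon source.

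The grouping of the 3 genes as L-arabinose pathway genes holds for *lad1* and *lxr3* in the annotation of the study. There, *lad1* is placed in both the pentose and the oxido-reductive D-galactose pathway, *lxr3* (also given the name *gld1*) in the pentose pathway, and *lxr4* in the D-galactose pathway alone. These names were transferred from *T. reesei* by reciprocal best hits, so the activity of the *T. harzianum* proteins was not measured. On assembly Triha v1.0, *lad1* spans positions 1680388 to 1681601 of its scaffold, *lxr3* 2186591 to 2187665 and *lxr4* 2351929 to 2352932. The lengths implied by the FPKM values were 1134 bases for *lad1*, 876 for *lxr3* and 906 for *lxr4*, shorter than the genomic spans of 1214, 1075 and 1004 bases. The gene table used for these positions names no scaffold and no strand. Its adjacent entries lay between 474 and 1499 bases away and none overlapped a member, provided that they are on the same scaffold.

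Each library held 16208381 to 21263103 reads assigned to genes. The 3 genes took between 89 reads (*lad1*, wild type on D-fructose, replicate 1) and 2401 reads (*lxr3*, wild type on cellulose, replicate 2). The reads on *xyr1* itself were between 1272 and 13130 in the 9 wild type libraries and between 0 and 11 in the 9 mutant libraries, which fits the strain labels. Libraries of a group resembled each other, with a mean Pearson's r of log2(FPKM + 1) across genes between 0.949 and 0.995, and the lowest value was that of replicate 3 of the wild type on cellulose. FPKM are scaled for length and library size, but not for the RNA composition of a library. The factors that correct for composition (TMM) ranged from 0.62 to 0.97 for 9 libraries, those from D-fructose and the wild type cellulose cultures, and from 1.17 to 1.28 for the other 9, so that a difference across these sets depends on the scaling.

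*lad1* had the lowest FPKM of the 3 genes in each library and the widest range across the groups. Its FPKM were 51.7, 50.6 and 54.6 in replicates 1 to 3 from the mutant on cellulose, against 11.1, 13.3 and 14.7 in the wild type on cellulose. Without a carbon source, the values were 41.3, 42.3 and 38.7 in the wild type and 38.4, 34.7 and 39.4 in the mutant. On D-fructose they were 4.46, 8.75 and 8.62 in the wild type and 8.78, 9.83 and 6.34 in the mutant. The mutant on cellulose was therefore at the top, the carbon-free cultures of both strains next, the wild type on cellulose well below them and the D-fructose cultures at the bottom. The libraries of neighbouring groups in this order overlapped between the 2 strains without a carbon source and between the 2 strains on D-fructose, and did not overlap elsewhere. The highest group mean, 52.3 ± 2.07 (SD, n = 3), was 7.19 times the lowest, 7.28 ± 2.44. After division of the FPKM by the TMM factors the order of the groups was the same and the ratio was 5.47, but the wild type on cellulose then also overlapped with the mutant on D-fructose.

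*lxr3* had the narrowest range of the 3, with a ratio of 1.74 between its highest and its lowest group mean. The FPKM were 105.9, 158 and 97.3 in the wild type on cellulose and 79.5, 67.0 and 81.2 in the mutant on cellulose. On D-fructose they were 89.6, 138 and 49.7 in the wild type and 92.9, 132.7 and 132.6 in the mutant. Without a carbon source they were 73.1, 81.6 and 75.8 in the wild type and 62.1, 69.0 and 76.2 in the mutant. The wild type on cellulose and the mutant on D-fructose had the highest means and the mutant without a carbon source the lowest, and each group overlapped with its neighbours in the order. The wild type on D-fructose was the most scattered, with an SD of 44.2 around a mean of 92.4 FPKM, and its replicate 3 was the lowest of all the 18 libraries. Divided by the TMM factors, the ratio of the highest to the lowest group mean of *lxr3* rose to 2.77, and the D-fructose cultures of the mutant moved to the top of the order with 158 ± 10.96.

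*lxr4* had its highest level in the wild type on cellulose. Its FPKM were 120.1, 142 and 97.3 in the wild type on cellulose, and the next group was the Δ*xyr1-2* mutant on cellulose with 78.0, 66.1 and 63.0. Without a carbon source the values were 64.9, 59.8 and 65.4 in the wild type and 47.7, 57.2 and 69.3 in the mutant. On D-fructose they were 22.7, 39.3 and 46.2 in the wild type and 21.2, 32.1 and 29.5 in the mutant. The wild type on cellulose stood above all the other groups without overlap, the mutant on cellulose and the carbon-free cultures of both strains overlapped in the middle, and the D-fructose cultures lay below them. The highest group mean, 119.8 ± 22.3, was 4.34 times the lowest, 27.6 ± 5.68, and 4.09 times after division by the TMM factors. On that scale the wild type on D-fructose overlapped with the carbon-free cultures of both strains.

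**Figure D1:**
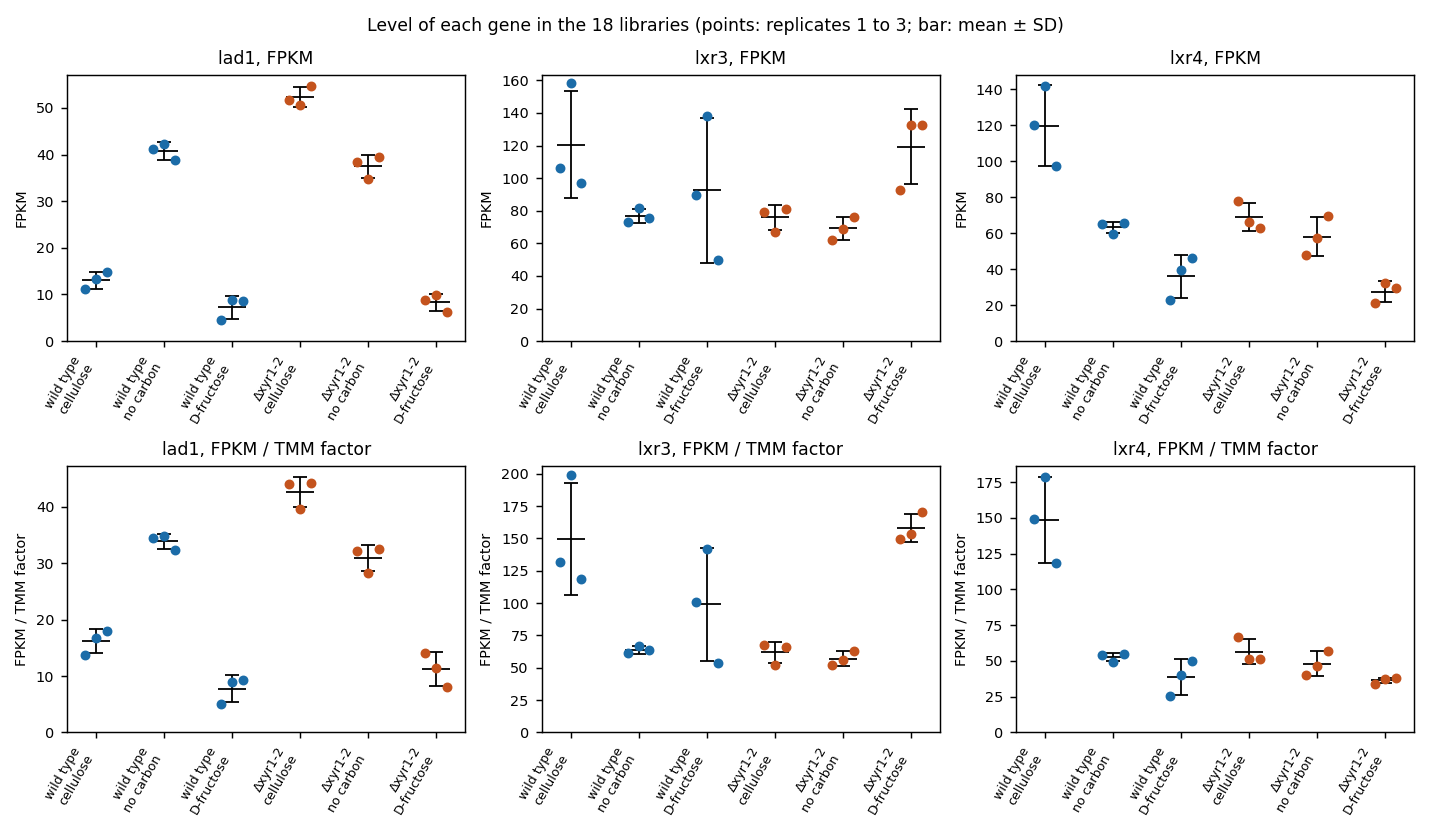
FPKM (upper row) and FPKM divided by the TMM factor of the library (lower row) of *lad1*, *lxr3* and *lxr4* in the 18 libraries, with wild type in blue and the Δ*xyr1-2* mutant in orange. Points are replicates 1 to 3 and bars the mean ± SD (n = 3). The Δ*xyr1-2* mutant on cellulose has the highest *lad1* (50.6 to 54.6 FPKM), while the wild type on cellulose has the highest *lxr4* (97.3 to 142 FPKM).

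To ask which of the 3 genes differed between the strains on cellulose, the Δ*xyr1-2* mutant was compared with the wild type. The study detected no cellulase activity from the mutant on cellulose and saw fewer mycelia in those cultures. Loss of XYR1 and lack of usable carbon therefore cannot be told apart in this comparison. The 3 genes did not move together. *lad1* had 2.64-fold higher expression in the mutant, while *lxr3* was 2.41-fold and *lxr4* 2.64-fold lower, as ratios of the mean FPKM divided by TMM factors. The libraries of the strains did not overlap for any of the 3 genes, with or without that division. The share of all the genes without overlap between the strains was not counted.

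The comparison used the quasi-likelihood test of edgeR on the counts, and a call needed a Benjamini-Hochberg adjusted p below 0.05 together with a more than 2-fold difference and a group mean above 1 FPKM. The log2 fold change of *lad1* was 1.32 ± 0.17 (SE, edgeR adjusted p = 0.00137). That of *lxr3* was -1.35 ± 0.25 (edgeR adjusted p = 0.00468) and that of *lxr4* was -1.48 ± 0.22 (edgeR adjusted p = 0.00211). All 3 were called, in a comparison in which 42.2% of the 11479 genes tested were called, 21.5% as higher and 20.7% as lower in the mutant. Calls in either direction were common, and 80.1% of the genes tested had a lower log2 fold change than *lad1*, against 17.8% for *lxr3* and 16.1% for *lxr4*.

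Scaling decided whether *lxr3* and *lxr4* reached the fold criterion. With scaling by library size alone, the median log2 fold change of all the genes tested moved from 0.00 to 0.68, and 4208 genes were called as higher and 1270 as lower in place of 2470 and 2379. On that scale *lxr3* was at -0.67 (edgeR adjusted p = 0.0364) and *lxr4* at -0.80 (edgeR adjusted p = 0.0105), still lower in the mutant but with folds under 2, while *lad1* was at 2.00 and stayed called. Leaving out any 1 of the 6 libraries kept the 3 calls, with log2 fold changes between 1.22 and 1.45 for *lad1*, between -1.51 and -1.08 for *lxr3* and between -1.63 and -1.32 for *lxr4*.

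**Figure D2:**
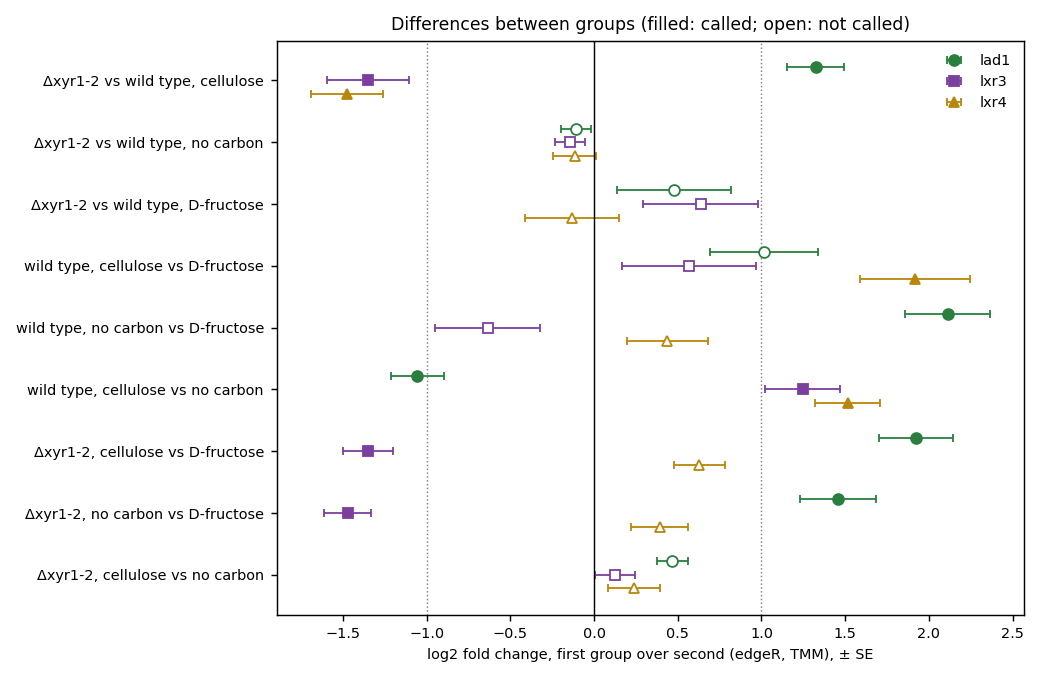
Log2 fold changes ± SE of *lad1* (circles), *lxr3* (squares) and *lxr4* (triangles) in the 9 comparisons of 2 groups, from the edgeR fits with TMM normalization. Filled symbols were called and open ones were not, and dotted lines mark a 2-fold change. The strains differ on cellulose, with *lad1* at 1.32 and *lxr3* and *lxr4* at -1.35 and -1.48, and lie near 0 without a carbon source.

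In the other media, none of the 3 genes was called between the strains. Without a carbon source, the log2 fold changes of mutant against wild type were -0.11 ± 0.09 for *lad1*, -0.14 ± 0.09 for *lxr3* and -0.12 ± 0.13 for *lxr4*, with edgeR adjusted p of 0.809, 0.761 and 0.849. In this comparison 0.132% of the genes were called. On D-fructose the values were 0.48 ± 0.34, 0.64 ± 0.34 and -0.13 ± 0.28, with edgeR adjusted p of 0.648, 0.621 and 0.859, and 0.00917% of the genes were called. The SE were larger on D-fructose, and the *lxr3* libraries of the strains overlapped there in FPKM. After division by the TMM factors they did not, with 149.7 to 170.3 in the mutant and 53.9 to 141.8 in the wild type. Such lack of overlap was not counted over all the genes.

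The differences between the media in the size of the strain effect were tested as interaction terms on 12 libraries, in which the response of the wild type is subtracted from that of the mutant. Between cellulose and the carbon-free medium the terms were 1.42 ± 0.18 for *lad1* (edgeR adjusted p = 0.000104), -1.22 ± 0.27 for *lxr3* (edgeR adjusted p = 0.00313) and -1.38 ± 0.26 for *lxr4* (edgeR adjusted p = 0.00127). All 3 were called, among 41.1% of the genes tested, 21.2% as higher and 19.9% as lower. The call of *lxr3* was lost without replicate 2 of the wild type on cellulose (-0.95), and with scaling by library size *lxr3* (-0.51) and *lxr4* (-0.67) were not called. Between cellulose and D-fructose the terms were -1.95 ± 0.44 for *lxr3* (edgeR adjusted p = 0.00513) and -1.31 ± 0.35 for *lxr4* (edgeR adjusted p = 0.0116), which were called, as 42.5% of the genes were, 21.4% as higher and 21.1% as lower. The term of *lad1*, 0.87 ± 0.38, was not called (edgeR adjusted p = 0.0838). With scaling by library size it was 1.81 and called, while those of *lxr3* and *lxr4* were -1.03 and -0.41 and were not. No gene was called for the interaction between the carbon-free medium and D-fructose by edgeR, with 973 of 11826 genes at an unadjusted p under 0.05 and 66 genes called by DESeq2, and the 3 genes were at -0.66, -0.84 and -0.05.

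Within the wild type, the comparison of cellulose with D-fructose asked which genes were higher on the polymer than on a sugar that all the cultures had been grown on. *lxr4* was 3.84-fold higher on cellulose on the TMM scale, *lad1* 2.07-fold and *lxr3* 1.51-fold. *lxr4*, with a log2 fold change of 1.92 ± 0.33 (edgeR adjusted p = 0.0168), was called, in a comparison in which 7.58% of the 10922 genes tested were called, 2.77% as higher and 4.81% as lower. The call of *lxr4* was lost without wild type replicate 1 on cellulose, replicate 2 on cellulose or replicate 2 on D-fructose, with edgeR adjusted p up to 0.0844 and log2 fold changes between 1.73 and 2.14. *lad1* was at 1.02 ± 0.32 (edgeR adjusted p = 0.102) and *lxr3* at 0.57 ± 0.40 (edgeR adjusted p = 0.376).

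In this comparison, same-numbered cultures of the wild type deviated together, so the replicate numbers were taken as pairs. With the pairing as a block, *lad1* was at 1.06 (edgeR adjusted p = 0.0356) and was called. The share of genes called rose with the block from 7.58% to 18.3%, with 7.22% as higher and 11.1% as lower, and the number of genes called was between 213 and 2868 when 1 library was left out, against 828 with all 6. The *lad1* libraries on the 2 media did not overlap, with the highest on D-fructose at 8.75 FPKM and the lowest on cellulose at 11.1. Lack of overlap was not counted over all the genes. The *lxr3* libraries overlapped broadly.

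The medium without a carbon source served as the control for the lack of a readily used sugar. Against D-fructose, *lad1* of the wild type was 4.35-fold higher without a carbon source on the TMM scale, with a log2 fold change of 2.11 ± 0.26 (edgeR adjusted p = 0.000631). *lxr3* and *lxr4* were at -0.64 ± 0.32 and 0.44 ± 0.24, with edgeR adjusted p of 0.135 and 0.175, and were not called. The share of genes called in this comparison was 29.9%, 14.4% as higher and 15.5% as lower.

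Cellulose against no carbon in the wild type separated *lad1* from the other 2 genes. *lad1* was 2.10-fold lower on cellulose, while *lxr3* was 2.34-fold and *lxr4* 2.82-fold higher, all on the TMM scale. Their log2 fold changes were -1.06 ± 0.16 (edgeR adjusted p = 0.00209), 1.25 ± 0.23 (edgeR adjusted p = 0.00432) and 1.52 ± 0.19 (edgeR adjusted p = 0.00112). All 3 were called, as were 42.0% of the genes tested, 19.9% as higher and 22.1% as lower. The value of *lad1* was close to the fold criterion, and without replicate 1 of the wild type on cellulose it was -0.89 and was not called. With scaling by library size, *lxr3* and *lxr4* were at 0.65 and 0.92 and were not called.

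In the Δ*xyr1-2* mutant, the libraries on cellulose and in the carbon-free medium overlapped for *lxr3* and *lxr4*, while *lad1* was 1.38-fold higher on cellulose on the TMM scale. The log2 fold changes of cellulose against no carbon were 0.47 ± 0.09 for *lad1*, 0.12 ± 0.12 for *lxr3* and 0.24 ± 0.16 for *lxr4*. None of the 3 was called, with edgeR adjusted p of 0.571, 0.911 and 0.887, and 0.0782% of the genes tested were. These values are from the fit without pairing. Same-numbered cultures deviated together here as well. With the replicate block none of the 3 was called either, and 6 genes were called in place of 9. The *lad1* libraries did not overlap, with 50.6 to 54.6 FPKM on cellulose and 34.7 to 39.4 without a carbon source. How many of all the genes also did not overlap here was not counted.

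Against D-fructose, the mutant had higher *lad1* and lower *lxr3* on cellulose as well as without a carbon source. *lad1* was 3.80-fold higher on cellulose (log2 fold change 1.93 ± 0.22, edgeR adjusted p = 0.000648) and 2.76-fold higher without a carbon source (1.46 ± 0.23, edgeR adjusted p = 0.0018). *lxr3* was 2.55-fold lower on cellulose (-1.35 ± 0.15, edgeR adjusted p = 0.000568) and 2.77-fold lower without a carbon source (-1.47 ± 0.14, edgeR adjusted p = 0.000286). *lad1* and *lxr3* were called in both comparisons, in which 39.6% (19.6% higher, 19.9% lower) and 39.0% (18.7% higher, 20.3% lower) of the genes were called. These comparisons share the D-fructose libraries of the mutant.

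*lxr4* was not called in the mutant, with log2 fold changes of 0.63 ± 0.15 on cellulose (edgeR adjusted p = 0.0112, fold under 2) and 0.39 ± 0.17 without a carbon source (edgeR adjusted p = 0.0845). The *lxr3* and *lxr4* results of the mutant depended on the scaling. By library size alone, *lxr3* was at -0.65 on cellulose and -0.79 without a carbon source and was not called, while *lxr4* was at 1.32 and 1.07 and was called in both. Over the 9 comparisons of 2 groups, *lad1* was called 5 times, *lxr3* 4 times and *lxr4* 3 times. Between 29.9% and 42.2% of all the genes tested were called in 5 of these comparisons.

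The relation of the 3 transcripts to each other was also read within each library, where no scaling of the library can move it. These ratios of FPKM were added after the data had been seen. On cellulose, the FPKM of *lxr3* were 9.54, 11.9 and 6.60 times those of *lad1* in replicates 1 to 3 of the wild type and 1.54, 1.32 and 1.49 times in the mutant. Without a carbon source the ratio was between 1.77 and 1.96 in the wild type and between 1.62 and 1.99 in the mutant, and on D-fructose it was between 5.76 and 20.1 in the wild type and between 10.6 and 20.9 in the mutant. The mutant on cellulose was thus closer in this ratio to the carbon-free cultures than to the wild type on cellulose.

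The ratio of *lxr4* to *lad1* also differed between the strains on cellulose, at 10.8, 10.7 and 6.60 in the wild type and 1.51, 1.31 and 1.15 in the mutant. On D-fructose it was between 4.49 and 5.36 in the wild type and between 2.41 and 4.65 in the mutant. The ratio of *lxr4* to *lxr3* was near 1 on cellulose in both strains, with a mean log2 of 0.01 ± 0.17 (SD) in the wild type and -0.14 ± 0.20 in the mutant, and those libraries overlapped. On D-fructose *lxr3* exceeded *lxr4* by 4.14 to 4.50 times in the mutant, and by 3.95, 3.51 and 1.08 times in the wild type, where replicate 3 stood apart.

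In exact permutation tests of the log2 ratios (2-sided, 3 against 3 cultures), the libraries of the groups did not overlap in 16 of the 27 comparisons, and p was then 0.1, the smallest that this design allows. The adjusted p over the 27 was 0.169 for these, so none could pass the threshold. The ratios share genes and the comparisons share libraries, so the 27 are not independent. Other pairs of genes were not counted. The strain difference on cellulose was 2.65 for the log2 ratio of *lad1* to *lxr3*, 2.80 for that of *lad1* to *lxr4* and -0.15 for that of *lxr4* to *lxr3*, and the libraries of the last overlapped (exact permutation p = 0.4).

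**Figure D3:**
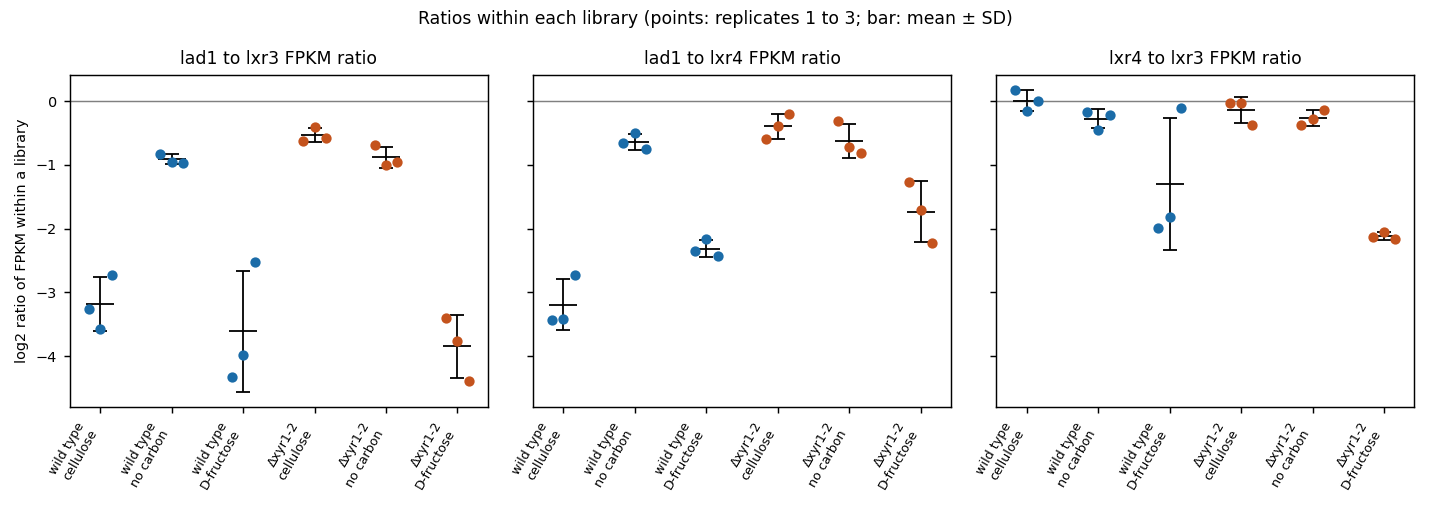
Log2 ratios of FPKM of 2 genes within each library, for *lad1* to *lxr3*, *lad1* to *lxr4* and *lxr4* to *lxr3*, with wild type in blue and the Δ*xyr1-2* mutant in orange. Points are replicates 1 to 3 and bars the mean ± SD (n = 3). On cellulose the mean of *lad1* to *lxr3* is -3.18 in the wild type and -0.53 in the mutant.

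*lad1* and *lxr3* act between *xyl1*, the reductase at the entry of the pathway, and *xdh1* and *xki1* at its end. On cellulose, *xyl1* was 1093, 1222 and 764 FPKM in the wild type and 128, 113 and 116 in the Δ*xyr1-2* mutant, with a log2 fold change of -3.79 ± 0.30 (edgeR adjusted p = 0.000287). *xki1* was 52.0, 51.0 and 39.2 FPKM in the wild type and 8.09, 9.61 and 10.1 in the mutant, with a log2 fold change of -3.04 ± 0.20 (edgeR adjusted p = 0.000148). *xdh1* was 38.2, 66.4 and 35.1 FPKM in the wild type and 81.9, 76.5 and 95.4 in the mutant, and was not called (0.17 ± 0.29, edgeR adjusted p = 0.632). In the mutant *xyl1*, *lxr3* and *xki1* were thus lower and *lad1* was higher.

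Of the 5 genes of the pentose catabolic pathway, 1 was higher, 3 were lower and 1 was not called in the mutant on cellulose, with a median log2 fold change of -1.35 against 0.00 over all the genes tested, of which 21.5% were called as higher and 20.7% as lower. In the wild type on cellulose against D-fructose, 3 of the 5 were higher, namely *xyl1* (4.24 ± 0.38), *xdh1* (2.00 ± 0.43) and *xki1* (1.66 ± 0.24), with a median of 1.66 against -0.01 and 2.77% of all genes called as higher. With the replicate block *lad1* was added, making 4 of 5, where 7.22% of all genes were called as higher. The call of *xdh1* was lost without any 1 of the libraries other than replicate 3 of the wild type on cellulose, and that of *xki1* without replicate 2 of the wild type on cellulose or on D-fructose.

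*xdh1* resembled *lad1* in the cultures without a carbon source. Against D-fructose it was higher without a carbon source, by a log2 fold change of 2.48 ± 0.33 in the wild type (edgeR adjusted p = 0.000932) and of 2.92 ± 0.38 in the mutant (edgeR adjusted p = 0.000878), and by 3.25 ± 0.29 in the mutant on cellulose (edgeR adjusted p = 0.000279). In none of these comparisons was *xyl1* or *xki1* called. Of the 4 genes of the oxido-reductive D-galactose pathway (*xyl1*, *lad1*, *lxr4* and *xdh1*), 3 were higher on cellulose than on D-fructose in the wild type, and all 4 with the replicate block. Of all the genes tested, 2.77% were called as higher, and 7.22% with the block. In the mutant on cellulose against the wild type, *lad1* was higher and *xyl1* and *lxr4* were lower, with a median of -0.65. There 21.5% of all the genes tested were called as higher and 20.7% as lower.

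**Figure D4:**
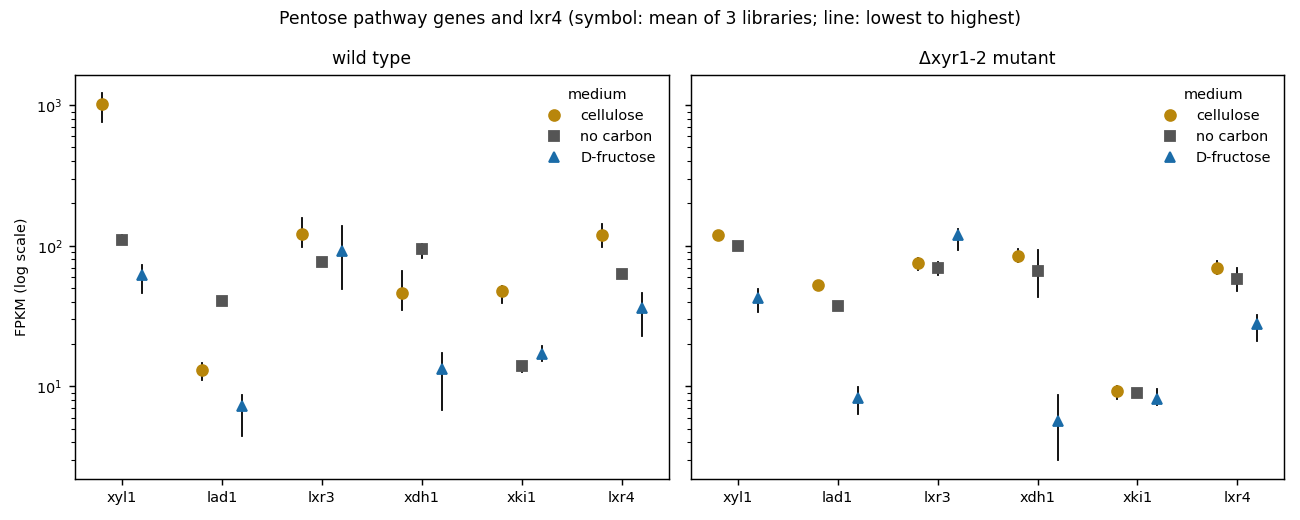
FPKM on a log axis of *xyl1*, *lad1*, *lxr3*, *xdh1*, *xki1* and *lxr4* by medium, for the wild type (left) and the Δ*xyr1-2* mutant (right). Symbols are means of 3 libraries and lines run from the lowest to the highest library. On cellulose *xyl1* is at 764 to 1222 FPKM in the wild type and 113 to 128 in the mutant, and *lad1* at 11.1 to 14.7 and 50.6 to 54.6.

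The other pathways that share substrates or products with these genes were counted in the same comparisons. In the annotated alternative L-arabinose pathway, 1 of 5 genes was lower in the mutant on cellulose, a share near the 20.7% of all the genes tested, and the median log2 fold change was 0.03. That gene, annotated *araB* (M431DRAFT_74604), was at -4.50 ± 0.18 (edgeR adjusted p = 6.7e-05), with a mean FPKM of 324 ± 26.2 in the wild type and 23.0 ± 1.57 in the mutant. It was higher on cellulose than on D-fructose in the wild type as well (4.23 ± 0.30, edgeR adjusted p = 0.00081), with 19.5 ± 4.41 FPKM on D-fructose.

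In the Leloir pathway of D-galactose, 2 of 4 genes were lower in the mutant on cellulose, with a median of -1.06, where 20.7% of all the genes tested were called as lower. *gal1*, the galactokinase, was at -1.60 ± 0.31 (edgeR adjusted p = 0.00605), and *gal10*, the UDP-galactose epimerase, was the other. With scaling by library size both were still lower but not called. None of the 4 was called in the wild type on cellulose against D-fructose. Of 7 genes of the D-galacturonic acid pathway, 1 was higher and 2 were lower in the mutant on cellulose, with a median of -0.35 and a share of calls near that of all the genes tested (42.2%). The higher was *lga1*, an aldolase of that pathway (1.29 ± 0.18, edgeR adjusted p = 0.00177), and M431DRAFT_509735, annotated *ara1*, fell by 4.15 on the log2 scale (edgeR adjusted p = 0.00654). The fall of M431DRAFT_509735 was uneven, with 182.8, 143.7 and 18.2 FPKM in the wild type and 9.12 to 12.3 in the mutant. This gene was counted here only as a member of the D-galacturonic acid list. The study also names an *ara1* ortholog among its transcription factors, and reported that factor as not differentially expressed between the strains on cellulose. The other lower gene was *lgd1*, the L-galactonate dehydratase, whose call was lost without any 1 of the libraries other than replicate 3 of the wild type on cellulose. *gar1*, a D-galacturonate reductase, was higher on cellulose than on D-fructose in the wild type (1.18 ± 0.24, edgeR adjusted p = 0.0314), a call that was lost without any 1 of the libraries other than replicate 3 of the wild type on cellulose. None of the 3 L-rhamnose genes was called in either comparison. With the replicate block, cellulose against D-fructose in the wild type gave 1 more lower gene in the alternative L-arabinose list, 1 more lower in the D-galacturonic acid list and 1 more higher in the pentose phosphate list. Over all the genes tested, the block raised the share called as lower from 4.81% to 11.1% and as higher from 2.77% to 7.22%.

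Of the genes of the pentose phosphate pathway, which D-xylulose 5-phosphate enters, 1 was higher, 3 were lower and 5 were not called in the mutant on cellulose, with a median of -0.57, and the share called was again near the 42.2% of all the genes tested. The transketolase gene *tktB* was higher (1.65 ± 0.24, edgeR adjusted p = 0.0022) and the transaldolase gene *talA* was lower (-1.30 ± 0.34, edgeR adjusted p = 0.0181), and the calls of *talA* and of the transketolase gene *tktA* were lost without any 1 of those libraries other than replicate 3 of the wild type. The epimerase gene *rpeA* was the other lower gene, and with scaling by library size these 3 were still lower but not called. Cellulose against D-fructose in the wild type gave 4.81% of all the genes tested as lower and 2.77% as higher. Of the pentose phosphate genes, 2 of 10 were lower there and none was higher. One of them was *tktB* (-2.37 ± 0.56, edgeR adjusted p = 0.0457), a call that was also lost without any 1 of the libraries other than replicate 3 on cellulose. *rpiB*, annotated as a ribose-5-phosphate isomerase, had no reads in the 3 libraries on cellulose and between 417 and 1525 on D-fructose, at least 853-fold lower if 3 reads over the group are taken as the floor.

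The genes whose FPKM followed each member most closely over the 18 libraries were found by Pearson's r of log2(FPKM + 1) among 11588 genes, as a description. For *lad1* they were M431DRAFT_506900 (r = 0.985), M431DRAFT_146897 (r = 0.985) and M431DRAFT_511458 (r = 0.983), which have no function in the annotation used here. M431DRAFT_506900 had mean FPKM of 3831 in the mutant on cellulose, 209 in the wild type on cellulose and 47.8 in the wild type on D-fructose, over a wider range than *lad1*.

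For *lxr4* they were M431DRAFT_3196 (r = 0.982), M431DRAFT_78889 (r = 0.965) and M431DRAFT_414920 (r = 0.951). For *lxr3* they were M431DRAFT_72179 (r = 0.899), M431DRAFT_108321 (r = 0.894) and M431DRAFT_93243 (r = 0.883). The genes found changed with the scale. With TMM-normalized log2 CPM, the highest r was 0.965 for *lxr3* and 0.967 for *lxr4*, and *xyl1* (M431DRAFT_83947) was the second most similar gene to *lxr4* (r = 0.954). Among the members, r was -0.52 between *lad1* and *lxr3*, 0.47 between *lad1* and *lxr4* and 0.01 between *lxr3* and *lxr4* in log2(FPKM + 1), and -0.65, 0.21 and 0.23 in TMM-normalized log2 CPM. The libraries of a group share their medium and strain, so these are not 18 independent points.

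The genes listed next to the members were read in the same comparison of the strains on cellulose. M431DRAFT_508438, listed 474 bases before *lad1*, was lower in the mutant (-2.10 ± 0.27, edgeR adjusted p = 0.0014), against the direction of *lad1*, and the tRNA gene on the other side was too low to be tested. M431DRAFT_79660, beside *lxr3*, was lower (-1.05 ± 0.18, edgeR adjusted p = 0.00413), but at -0.36 and not called with scaling by library size, while M431DRAFT_479567 on its other side was not called (-0.38 ± 0.17, and 0.31 with scaling by library size). Of the neighbours of *lxr4*, M431DRAFT_82392 was higher in the mutant (2.09 ± 0.62, edgeR adjusted p = 0.0274), from 3 to 20 reads in the wild type to 60 to 82 in the mutant, and M431DRAFT_83894 was not called (0.80 ± 0.16, edgeR adjusted p = 0.00738, fold under 2), but was at 1.48 and called with scaling by library size.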

How the data were processed

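The authors made poly-A libraries from mycelium, sequenced them as paired-end reads and used STAR 2.5.2b and HTSeq 0.5.4, per the labels. They deposited raw read counts per gene and FPKM, scaled for gene length and library size; whether counting used the strand is not given in the sources used here. Groups and replicate numbers came from the sample titles.

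Counts of 2 groups were compared by quasi-likelihood fits in edgeR 4.0.16 under R 4.3.3 (F-test, TMM, filterByExpr, Benjamini-Hochberg over all genes tested, the 6 libraries of the 2 groups). Standard errors were derived from the F statistic. Interactions used 12 libraries and no FPKM criterion. Ratios used scipy 1.17.1. The fits were tested on simulated data. The 3 replicate sets of pre-cultures were grown from separate spore plates.

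The members and lists were chosen with earlier results of these data known. Named were the members, the genes of the 2 pathways that hold them, the called gene with the largest rise and fall of each other list in the strain comparison on cellulose and in cellulose against D-fructose in the wild type, the 3 genes most like each member, and the adjacent genes. *gal10*, *lgd1*, *tktA* and *rpeA* were named after their values were seen.

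Alternatives were DESeq2 1.42.0, RLE factors, library size only, no filter, all 18 libraries in 1 fit, limma 3.58.1 on log2(FPKM + 1), the replicate block and leaving out each library. Same-numbered libraries deviated together (Pearson's r over 0.1 for all 3 numbers, from sets of pre-cultures) for the wild type on cellulose and D-fructose (0.43, 0.22 and 0.41) and for the mutant on cellulose and without carbon (0.22, 0.21 and 0.15), which were taken as paired.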

Additional observations from a re-analysis of the deposited data

Results flagged for a closer look

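Beyond the comparisons of 2 groups, 5 strain-by-medium terms of the members were past the threshold (edgeR, 12 libraries, response of the Δ*xyr1-2* mutant minus that of the wild type, log2). Between cellulose and D-fructose these were -1.95 for *lxr3* and -1.31 for *lxr4*. Between cellulose and no carbon they were 1.42 for *lad1*, -1.22 for *lxr3* and -1.38 for *lxr4*. The 2 sets share the cellulose libraries. The TMM factors were also lower in the wild type than in the mutant on cellulose, and their part in these terms was not tested beyond the scalings given next.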

How the results depend on the processing

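Of 504 alternative values of the members in the 12 comparisons, 471 kept their call, 23 lost it, 10 gained it and no called value was reversed. Values called in neither fit count as kept even where their sign changed. An example is *lxr4* between the strains on D-fructose, at -0.13 and up to 0.14 with 1 library left out. The cause of each change was not tested. With scaling by library size only and with limma on log2(FPKM + 1), which share that scaling, calls were lost for *lxr3* (-0.67 and -0.63) and *lxr4* (-0.80 and -0.78) in the mutant against the wild type on cellulose, and for *lxr3* (0.65 and 0.61) and *lxr4* (0.92 and 0.89) in the wild type on cellulose against no carbon. In the mutant, the call of *lxr3* was lost on cellulose (-0.65 and -0.63) and without carbon (-0.79 and -0.77) against D-fructose, and *lxr4* was called there at 1.32 and 1.31, and at 1.07 and 1.05. Among the interactions, library size gave 1.81 for *lad1* (called), -1.03 for *lxr3* and -0.41 for *lxr4* (lost) between cellulose and D-fructose, and -0.51 for *lxr3* and -0.67 for *lxr4* (lost) between cellulose and no carbon.

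*lad1* in the wild type on cellulose against D-fructose was called by DESeq2 (1.09), with the replicate block (1.06) and with all 18 libraries in 1 fit (1.05). Against no carbon it lost its call by DESeq2 (-0.96) and with RLE factors (-0.95), and ranged from -1.10 to -0.89 when 1 library was left out. Leaving out 1 library also gave 1.73 to 2.14 for *lxr4* in the wild type on cellulose against D-fructose, 0.68 to 1.10 for the *lad1* interaction between cellulose and D-fructose (called without replicate 1 on D-fructose of either strain) and -1.37 to -0.95 for the *lxr3* interaction between cellulose and no carbon (lost without replicate 2 of the wild type on cellulose). The block changed no other call of the members.

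The number of genes called in the wild type on cellulose against D-fructose was 828, with 1659 by DESeq2, 2003 with the block, 2293 with all 18 libraries and 213 to 2868 when 1 library was left out, the highest without replicate 3 on cellulose. In the comparisons with few calls, 9 genes (mutant on cellulose against no carbon), 1 (D-fructose) and 15 (no carbon, the strains) became 17, 110 and 24 by DESeq2, 5, 113 and 3 with all 18 libraries, and, with 1 library left out, 4 to 8, 0 to 1 and 3 to 12. The block gave 7 for the last. For the interaction between no carbon and D-fructose, 0 became 66 by DESeq2 and up to 15 without 1 library. Library size moved the calls as higher and lower from 1648 and 1775 to 2795 and 1254 (wild type, no carbon against D-fructose), from 2246 and 2502 to 1335 and 4045 (wild type, cellulose against no carbon), from 2251 and 2290 to 4426 and 1149 (mutant, cellulose against D-fructose) and from 2118 and 2293 to 4286 and 1185 (mutant, no carbon against D-fructose). For the interactions of cellulose it moved 2522 and 2485 to 4807 and 1218 (against D-fructose) and 2512 and 2365 to 4413 and 1170 (against no carbon). The fewest reads, 89 for *lad1*, set the widest counting error among the members.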
